A study of Mus musculus with 8 samples.

Results

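The genes of transforming growth factor beta (TGF-beta) signalling were followed through early reprogramming in mouse cells that received CSA, which stands for cyclosporin A, or its solvent DMSO. The 9 genes were the ligands Tgfb1, Tgfb2 and Tgfb3, the receptors Tgfbr1, Tgfbr2 and Tgfbr3, and 3 genes that the pathway is known to induce, Smad7, Skil and Tgfbi. They were chosen by name, and each was read from the probe set with the highest mean over the 8 arrays among its probe sets annotated with 1 symbol. The array carried such probe sets for 18193 genes, and the 9 had 23 of them. Of the 9 genes 8 passed the filter on low signals and were tested, as were 12529 of all genes, and Tgfb1 did not pass it.

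The 4 groups, with 2 arrays each, were CSA at day 6, DMSO at day 6, CSA at day 3 and DMSO at day 3. All 4 had a C57BL/6 background and a secondary OSKM system, in which Oct4, Sox2, Klf4 and Myc are switched on by doxycycline, so the DMSO cells carried the induced factors too. All grew in embryonic stem cell medium (15% serum, and leukemia inhibitory factor at 100 units per ml). The labels write 2 mg per ml for doxycycline and 10 mM for CSA, and these doses are given as written. Neither the tissue the cells came from nor the promoter and clonality of the transgenes is given in the sources used here. CSA binds cyclophilins and blocks calcineurin, the phosphatase that activates NFAT transcription factors, and the study asked which genes differ under this inhibition at each day.

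TGF-beta is secreted in a latent complex with its own propeptide and must be released before it can bind. The free ligand brings together the type II receptor, encoded by Tgfbr2, and the type I receptor, encoded by Tgfbr1, which then phosphorylates Smad2 and Smad3. These join Smad4 and enter the nucleus, where they act on target genes, some of which feed back on the pathway. In fibroblasts the pathway is known for inducing matrix and mesenchymal genes, and in reprogramming it is known as a barrier to the mesenchymal-to-epithelial transition.

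The arrays of a group correlated at 0.968 to 0.974 over the 27022 tested probe sets, and arrays of different groups at 0.918 to 0.963. No array stood apart from its group, and having 2 arrays a group limits how small a difference can be seen. As deposited, the median signal of the tested probe sets was 0.233 higher (log2) at day 6 than at day 3, and day differences are given on that scale. All 10 fibroblast markers and all 10 epithelial markers were above the filter, and 5 of 10 pluripotency markers were, with Sox2, Nanog, Zfp42, Tdgf1 and Dppa4 below it. Of the keratinocyte markers 8 of 10 were above it (Krt5 and Trp63 were not), of the macrophage markers 6 (Ptprc, Itgam, Tyrobp and C1qa were not) and of the endothelial markers 5 (Pecam1, Cdh5, Tie1, Emcn and Vwf were not). No marker was listed at 0. The filter was the 40th percentile of mean signal, so passing it does not by itself show that a transcript was present.

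With CSA, 3 of the 8 tested genes passed the test at 1 of the days. At day 6 the ligand Tgfb3 and the matrix gene Tgfbi were lower in CSA cells, at 0.534 and 0.435 times the DMSO signal. At day 3 the Smad corepressor Skil was 1.34-fold higher in CSA cells. The days differed in more of the genes: Tgfb2, Tgfb3, Tgfbr2 and Tgfbr3 were higher at day 6 than at day 3 in both treatments, Skil and Tgfbi were higher at day 6 in DMSO cells, and Smad7 was lower at day 6 in CSA cells. In whole cultures, fewer cells of a type and less RNA per cell cannot be told apart.

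Counted against all genes, CSA at day 6 called 2 of the 8, both lower, where 12.5% of the 12529 genes were called, 6.41% higher and 6.11% lower. At day 3 it called 1 of the 8, which was higher, where 12.7% of all genes were called, 7.14% higher and 5.52% lower. The effect of CSA differed between the days for 1 of the 8, Tgfbi, against 5.79% of all genes, of which 2.36% had a difference above and 3.43% below 0. In CSA cells 4 of the 8 were higher at day 6 than at day 3 and 1 was lower, where 36.1% of all genes were called, 20.2% higher and 15.8% lower. In DMSO cells 6 of the 8 were higher at day 6 than at day 3, where 45.7% of all genes were called, 26.1% higher and 19.6% lower. The median difference of the 8 was -0.05 for CSA at day 6 and 0.08 at day 3, beside -0.01 and -0.00 for all genes. For day 6 against day 3 it was 0.52 in CSA cells and 0.79 in DMSO cells, beside 0.08 for all genes in each. A call means an adjusted p under 0.05 in limma over all tested probe sets. Without the intensity trend in limma's spread, 0 of the 8 passed in either CSA comparison or in the test of their difference.

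**Figure D1:**
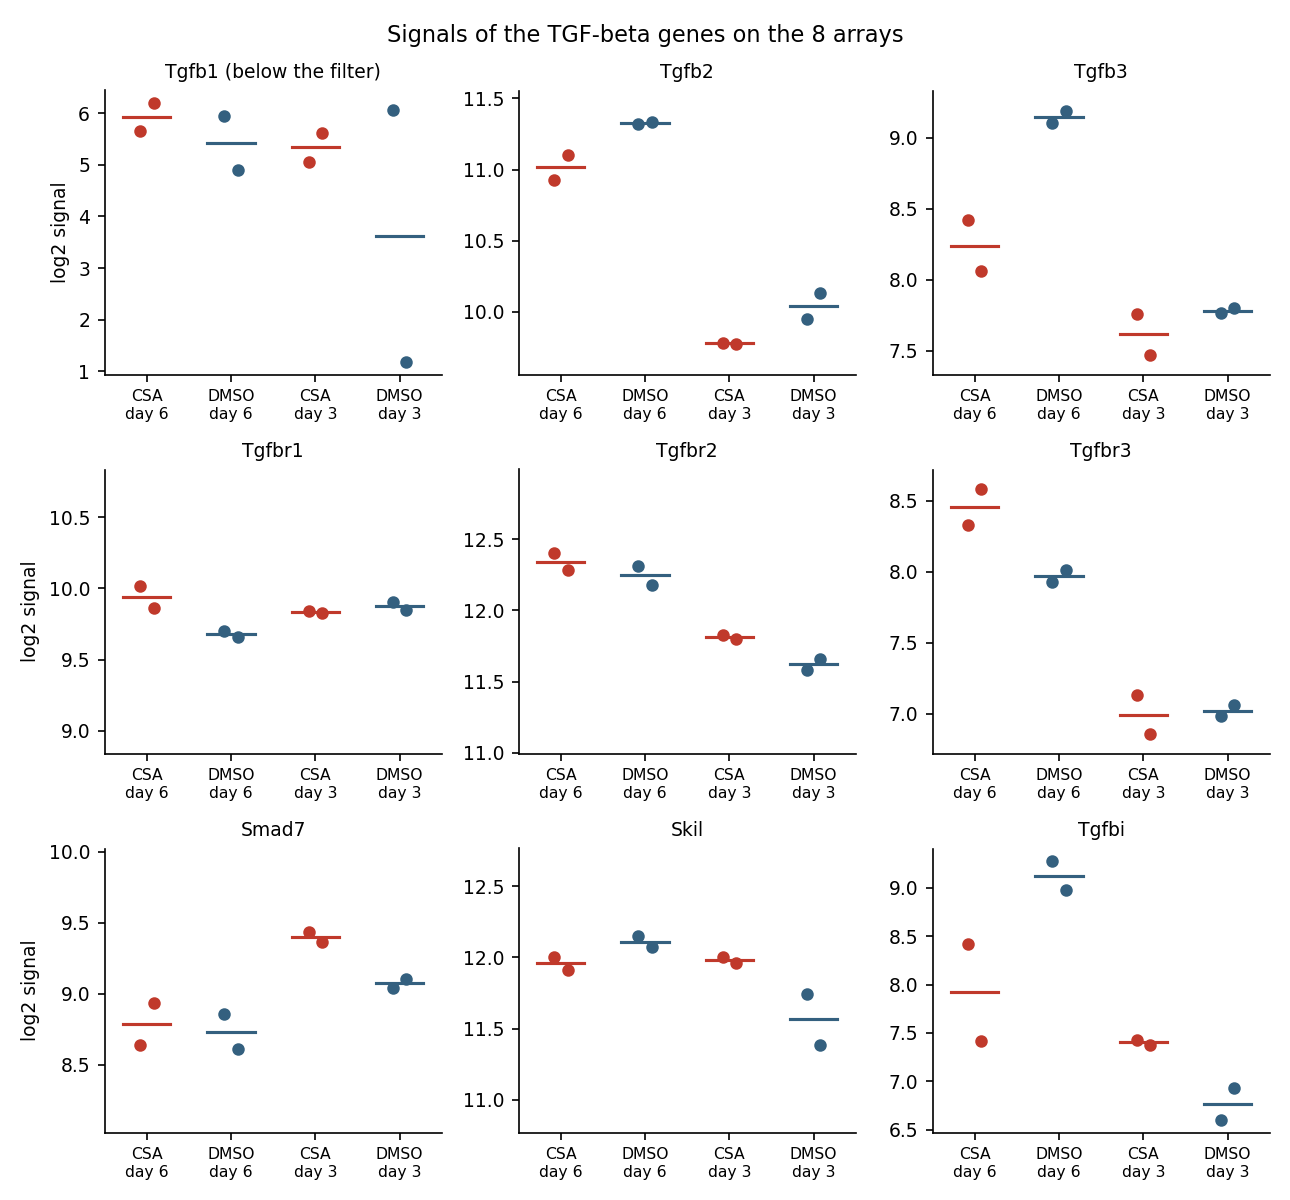
Each panel shows 1 gene on its own log2 signal axis, with a point for each array, a line for the group mean, CSA in red and DMSO in blue. Tgfb2, Tgfbr2 and Tgfbr3 sit higher at day 6 in both colours, and Tgfb3 and Tgfbi at day 6 have both CSA arrays below both DMSO arrays.

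**Figure D2:**
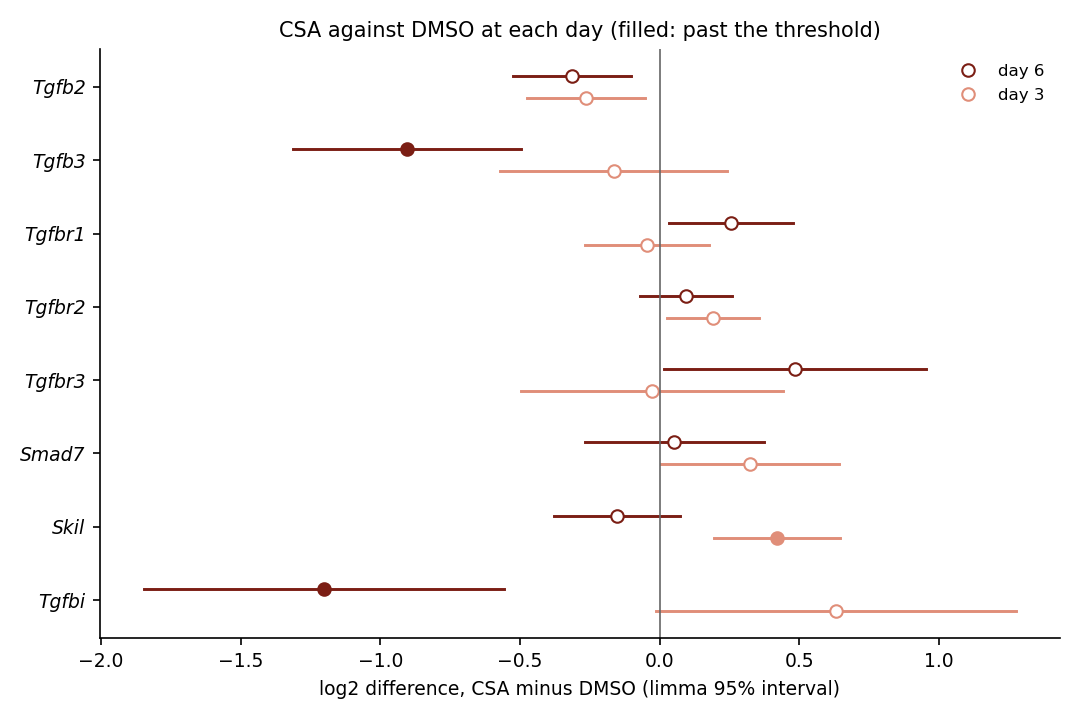
Differences between CSA and DMSO (log2) at day 6 (dark) and day 3 (light) for the 8 tested genes, with limma's 95% intervals and filled points for calls. Tgfb3 at -0.90 and Tgfbi at -1.20 at day 6, and Skil at 0.42 at day 3, are the filled points.

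The regions upstream of 3 of the genes that differed between the days are shown because they hold the sequence CAGAC, the short core that Smad3 and Smad4 are known to bind. They are RefSeq sequences of build GRCm38.p6, 250 bases each, read 5′ to 3′ along the gene and ending at the base before the start site. Capitals mark CAGAC or its reverse complement. They lie at chr1:186705990-186706239 on the minus strand for Tgfb2, chr9:116175364-116175613 on the minus strand for Tgfbr2 and chr13:56609336-56609585 on the plus strand for Tgfbi.
Tgfb2: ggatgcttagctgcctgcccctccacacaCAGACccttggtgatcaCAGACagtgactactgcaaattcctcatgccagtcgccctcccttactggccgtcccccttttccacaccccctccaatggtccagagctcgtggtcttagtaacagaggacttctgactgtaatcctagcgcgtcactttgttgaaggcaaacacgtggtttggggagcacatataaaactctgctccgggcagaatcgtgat
Tgfbr2: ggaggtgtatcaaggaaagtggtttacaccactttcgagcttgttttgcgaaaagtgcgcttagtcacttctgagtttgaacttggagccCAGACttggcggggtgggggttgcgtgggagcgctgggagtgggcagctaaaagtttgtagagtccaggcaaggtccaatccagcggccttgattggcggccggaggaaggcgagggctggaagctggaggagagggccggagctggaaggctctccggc
Tgfbi: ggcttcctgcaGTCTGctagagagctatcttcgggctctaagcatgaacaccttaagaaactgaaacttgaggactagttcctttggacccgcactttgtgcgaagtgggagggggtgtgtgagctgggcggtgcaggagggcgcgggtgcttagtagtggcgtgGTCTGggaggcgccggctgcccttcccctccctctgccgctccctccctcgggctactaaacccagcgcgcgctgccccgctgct

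CAGAC occurred on either strand 2 times upstream of Tgfb2, with its first bases 221 and 204 bases before the start site, 1 time upstream of Tgfbr2, at 160, and 2 times upstream of Tgfbi, at 239 and 85. It is a common sequence, present in 42.2% of 32851 RefSeq windows of the same length, so its presence describes these windows and nothing more. Of the member windows not shown, that of Tgfb1 held 0 matches to CAGAC. The Tgfbr1 window beginning at chr4:47352972 held 0, and the one beginning at chr4:47385966 held 1. Tgfb2 also had TATAAA, the core of a TATA box, 31 bases before its start, as had 12.4% of windows, and CACGTG, an E-box, 51 bases before it, as had 6.02%. The letters GGAAA, the core that NFAT proteins are known to bind, occurred 1 time each upstream of Tgfb2 and Tgfbr2, at 144 and 237 bases, and are in 55.6% of windows. Tgfbi had GGGCGG, a GC box, 124 bases before its start (32.7% of windows). The Tgfb2 window was 53.6% G and C, that of Tgfbr2 58.4% and that of Tgfbi 62.4%, beside a median of 52.4% over all windows. Neither TGANTCA (6.75% of windows), an AP-1 site, nor TGACGTCA (1.55%), a cyclic AMP response element, was found in the 3 windows on either strand. The matches named here did not overlap each other.

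Among the ligands, Tgfb2, a TGF-beta isoform of mesenchymal and epithelial tissues, was read from probe set 1450923_at. At day 6 its log2 signals were 10.93 and 11.10 in CSA cells, against 11.32 and 11.34 in DMSO cells. The day 3 signals were 9.78 and 9.77 in CSA cells, against 9.95 and 10.13 in DMSO cells. Both CSA arrays were thus below both DMSO arrays at each day, and every day 6 array was above every day 3 array. The day effect was the larger: Tgfb2 was 2.36-fold higher at day 6 than at day 3 in CSA cells (1.24 ± 0.10 log2, limma's standard error here and below, adjusted p = 6.84e-06) and 2.45-fold higher in DMSO cells (1.29 ± 0.10, adjusted p = 2.28e-06). With CSA it differed by -0.31 ± 0.10 at day 6 (adjusted p = 0.0657, 95% interval -0.53 to -0.10) and by -0.26 ± 0.10 at day 3 (adjusted p = 0.121, interval -0.47 to -0.05), neither past the threshold. The day 6 difference did pass without DMSO day 3 replicate 1 (adjusted p = 0.0466) or replicate 2 (adjusted p = 0.0474), with the filter at the 60th percentile (adjusted p = 0.0439) and as the mean of its 4 probe sets (-0.41, adjusted p = 0.0446). The CSA difference at day 6 minus that at day 3 was -0.05 (adjusted p = 0.885).

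Tgfb2 had 3 other tested probe sets, and all showed the same day course. Probe set 1450922_a_at was lower with CSA at day 6, by -0.69 ± 0.15 (adjusted p = 0.0132), with signals of 10.16 and 10.12 in CSA cells against 10.57 and 11.09 in DMSO cells. Probe set 1423250_a_at differed by -0.38 (adjusted p = 0.0930) and 1438303_at by -0.27 (adjusted p = 0.654). The CSA difference was thus below 0 on all 4 probe sets at day 6 and past the threshold on 1 of them. Day 6 was above day 3 on all 4, past the threshold in both treatments.

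Tgfb3, an isoform known for its part in palate fusion and in mesenchyme, had log2 signals at day 6 of 8.42 and 8.06 in CSA cells, against 9.10 and 9.19 in DMSO cells (probe set 1417455_at, its 1 probe set). At day 3 the signals were 7.76 and 7.47 in CSA cells, against 7.76 and 7.80 in DMSO cells. The groups stood apart at day 6, and at day 3 the highest CSA array lay just under the lowest DMSO array. At day 6 Tgfb3 was lower with CSA, by -0.90 ± 0.19 (0.534-fold, adjusted p = 0.0110). At day 3 the difference was -0.16 ± 0.19 (adjusted p = 0.670, interval -0.57 to 0.24). The difference between these effects was -0.74 ± 0.26 and did not pass (adjusted p = 0.151), so the effect of CSA was not shown to differ between the days. Between the days Tgfb3 was higher at day 6 in CSA cells, 1.54-fold (0.62 ± 0.19, adjusted p = 0.0253), and in DMSO cells, 2.57-fold (1.36 ± 0.19, adjusted p = 0.000142).

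The day 6 call on Tgfb3 was lost without CSA day 6 replicate 2 (-0.73, adjusted p = 0.0836), without DMSO day 6 replicate 1 (-0.95, adjusted p = 0.0575) and without DMSO day 6 replicate 2 (-0.86, adjusted p = 0.0879). The rise of Tgfb3 in CSA cells was lost without CSA day 3 replicate 2 (0.48, adjusted p = 0.156), without CSA day 6 replicate 1 (0.44, adjusted p = 0.169), and when the arrays were centred on their medians (0.41, adjusted p = 0.116). Its rise in DMSO cells held in all 8 fits that left out 1 array, at 1.32 to 1.41. With CSA at day 6, 1 of 10 fibroblast markers was called, lower (10%), and 4 of 10 epithelial markers were called, all 4 lower (40%), beside 12.5% of all genes called. The summed signals of the 10 fibroblast markers, on the linear scale, were 32480 to 32560 in CSA cells, against 37400 to 37750 in DMSO cells. Those of the 10 epithelial markers were 32790 to 32900 in CSA cells, against 42270 to 44780 in DMSO cells. Their part in the lower Tgfb3 was not tested.

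Tgfb1, the isoform best known from immune cells and wound repair, was dim on these arrays. Its probe set 1420653_at had log2 signals at day 6 of 5.65 and 6.19 in CSA cells, against 5.95 and 4.91 in DMSO cells. At day 3 it had 5.06 and 5.62 in CSA cells, against 6.06 and 1.18 in DMSO cells. The groups overlapped at both days and 1 DMSO array decided the lower DMSO mean at day 3. Its mean of 5.08 was below the filter of 5.38, so it was not tested. The other Tgfb1 probe set, 1445360_at, had 5.79 and 6.22 in CSA cells, against 1.54 and 4.19 in DMSO cells at day 6. At day 3 that probe set had 5.22 and 5.92 in CSA cells, against 2.96 and 3.29 in DMSO cells. On this set the CSA arrays lay above the DMSO arrays at both days, unlike on the first, and with a mean of 4.39 it was not tested.

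**Figure D3:**
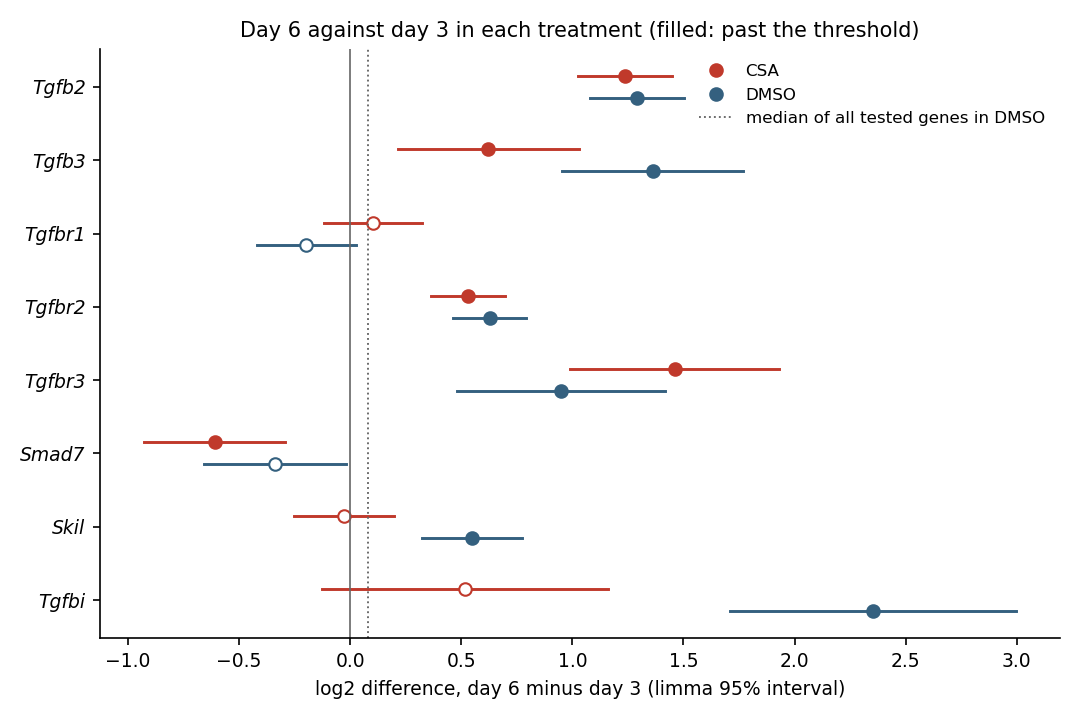
Differences between day 6 and day 3 (log2) in CSA cells (red) and DMSO cells (blue) for the 8 tested genes, with limma's 95% intervals, filled points for calls and a dotted line at the median of all tested genes in DMSO cells. Tgfb2, Tgfb3, Tgfbr2 and Tgfbr3 are filled in both colours, and Tgfbi is at 0.52 in CSA cells and 2.35 in DMSO cells.

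Of the receptors, Tgfbr2, the type II receptor that binds the ligand, had log2 signals at day 6 of 12.40 and 12.28 in CSA cells, against 12.32 and 12.18 in DMSO cells (probe set 1426397_at). At day 3 they were 11.83 and 11.80 in CSA cells, against 11.58 and 11.66 in DMSO cells. The treatments overlapped at day 6 and not at day 3, and the days did not overlap. Tgfbr2 was 1.44-fold higher at day 6 than at day 3 in CSA cells (0.53 ± 0.08, adjusted p = 0.00036) and 1.55-fold higher in DMSO cells (0.63 ± 0.08, adjusted p = 5.75e-05). With CSA it differed by 0.09 ± 0.08 at day 6 (adjusted p = 0.507, interval -0.07 to 0.26) and by 0.19 ± 0.08 at day 3 (adjusted p = 0.145, interval 0.03 to 0.36). A dimmer probe set, 1425444_a_at, showed 0.46 between the days in CSA cells (adjusted p = 0.265) and 0.42 in DMSO cells (adjusted p = 0.279), the same direction without a call. The mean of its 3 probe sets, 1 of them below the filter, did not pass for the days either (0.45 in CSA cells, adjusted p = 0.236, and 0.29 in DMSO cells, adjusted p = 0.429).

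Tgfbr3, or betaglycan, a co-receptor that presents ligand to the type II receptor and is needed above all for Tgfb2, moved with the day. At day 6 its log2 signals were 8.33 and 8.58 in CSA cells, against 7.93 and 8.01 in DMSO cells (probe set 1433795_at). Its day 3 signals were 7.13 and 6.86 in CSA cells, against 6.98 and 7.06 in DMSO cells. CSA at day 6 was the highest group and DMSO at day 6 the next, and both day 3 groups lay below them and overlapped. Day 6 was 2.75-fold above day 3 in CSA cells (1.46 ± 0.21, adjusted p = 0.000442) and 1.93-fold above it in DMSO cells (0.95 ± 0.21, adjusted p = 0.00415). At day 6 the difference with CSA was 0.49 ± 0.21 and did not pass (adjusted p = 0.195, interval 0.02 to 0.96), and at day 3 it was -0.03 (adjusted p = 0.967, interval -0.50 to 0.44). The difference between these effects was 0.51 ± 0.30 (adjusted p = 0.406). Averaged with its other probe set, which was below the filter, Tgfbr3 did not pass for the days (0.70 in CSA cells, adjusted p = 0.356, and 0.90 in DMSO cells, adjusted p = 0.203).

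Tgfbr1, the type I receptor kinase that phosphorylates Smad2 and Smad3, passed no test. Its log2 signals at day 6 were 10.01 and 9.86 in CSA cells, against 9.70 and 9.66 in DMSO cells (probe set 1420895_at). At day 3 they were 9.84 and 9.83 in CSA cells, against 9.91 and 9.85 in DMSO cells. All 8 values lay within a narrow range, and the DMSO cells at day 6 were the lowest of the 4 groups. The difference with CSA was 0.26 ± 0.10 at day 6 (adjusted p = 0.147, interval 0.03 to 0.48) and -0.04 ± 0.10 at day 3 (adjusted p = 0.858, interval -0.27 to 0.18). Day 6 minus day 3 was 0.10 in CSA cells (adjusted p = 0.486) and -0.20 in DMSO cells (adjusted p = 0.145). With arrays centred on their medians these values were -0.11 (adjusted p = 0.440) and -0.45 (adjusted p = 0.00372), so the sign in CSA cells and the call in DMSO cells depended on the scaling. The other 2 Tgfbr1 probe sets were below the filter.

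Of the feedback genes, Skil encodes SnoN, a corepressor that binds Smads and is itself induced by TGF-beta. At day 6 its log2 signals were 12.00 and 11.91 in CSA cells, against 12.15 and 12.07 in DMSO cells (probe set 1452214_at). The day 3 values were 12.00 and 11.96 in CSA cells, against 11.75 and 11.38 in DMSO cells. The DMSO cells at day 3 were the lowest group, and their replicate 2 was the lowest array. At day 3 Skil was higher with CSA, by 0.42 ± 0.10 (1.34-fold, adjusted p = 0.0250). At day 6 the difference was -0.15 ± 0.10 (adjusted p = 0.412, interval -0.38 to 0.07). The difference between these effects was -0.57 ± 0.15 and did not pass (adjusted p = 0.0509, or 0.00662 without DMSO day 3 replicate 1). Between the days Skil differed by -0.03 in CSA cells (adjusted p = 0.873) and was 1.46-fold higher at day 6 in DMSO cells (0.55 ± 0.10, adjusted p = 0.00132).

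The day 3 call on Skil was lost without CSA day 3 replicate 1 (0.40, adjusted p = 0.142), without CSA day 3 replicate 2 (0.44, adjusted p = 0.110) and without DMSO day 3 replicate 2, which also lowered the difference to 0.24 (adjusted p = 0.127). A second Skil probe set, 1422054_a_at, had a similar difference with CSA at day 3, 0.39 (adjusted p = 0.369), and went the other way with the day. On it day 6 minus day 3 was -0.57 in CSA cells (adjusted p = 0.0921) and -0.38 in DMSO cells (adjusted p = 0.223). The mean of both probe sets was lower at day 6 in CSA cells (-0.30, adjusted p = 0.0381) and at 0.08 in DMSO cells (adjusted p = 0.534).

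Smad7, the inhibitory Smad that blocks the type I receptor and recruits ubiquitin ligases to it, had log2 signals at day 6 of 8.64 and 8.93 in CSA cells, against 8.86 and 8.61 in DMSO cells (probe set 1423389_at). At day 3 they were 9.43 and 9.36 in CSA cells, against 9.04 and 9.11 in DMSO cells. The CSA cells at day 3 stood above the other 3 groups, and at day 6 the treatments overlapped. In CSA cells Smad7 was lower at day 6 than at day 3, by -0.61 ± 0.15 (0.655-fold, adjusted p = 0.00841). In DMSO cells it differed by -0.34 ± 0.15 (adjusted p = 0.0849), which did pass with arrays centred on their medians (-0.59, adjusted p = 0.00666). The difference with CSA was 0.05 at day 6 (adjusted p = 0.881, interval -0.27 to 0.37) and 0.32 ± 0.15 at day 3 (adjusted p = 0.203, interval 0.01 to 0.64). The lower signal at day 6 in CSA cells was not called without CSA day 3 replicate 1 (-0.58, adjusted p = 0.0593), without CSA day 6 replicate 1 (-0.46, adjusted p = 0.0658) or as the mean of both probe sets (-0.32, adjusted p = 0.260). The second probe set, 1443771_x_at, showed -0.03 between the days in CSA cells (adjusted p = 0.957).

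Tgfbi encodes a secreted matrix protein that was found as a gene induced by TGF-beta. On probe set 1456250_x_at its log2 signals at day 6 were 8.42 and 7.42 in CSA cells, against 9.27 and 8.97 in DMSO cells. At day 3 they were 7.42 and 7.38 in CSA cells, against 6.60 and 6.94 in DMSO cells. The order of CSA and DMSO was thus opposite at the 2 days, with no overlap at either, and 1 of the 2 CSA arrays at day 6 lay at the level of the CSA arrays at day 3. In CSA cells day 6 minus day 3 was 0.52 ± 0.29 and did not pass (adjusted p = 0.212, interval -0.13 to 1.16). In DMSO cells Tgfbi was 5.11-fold higher at day 6 than at day 3 (2.35 ± 0.29, adjusted p = 7.69e-05). With CSA Tgfbi was lower at day 6, by -1.20 ± 0.29 (0.435-fold, adjusted p = 0.0257), and differed by 0.63 ± 0.29 at day 3 (adjusted p = 0.221, interval -0.01 to 1.28). The effect of CSA at day 6 minus that at day 3 was -1.83 ± 0.42 and passed (adjusted p = 0.0335).

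The day 6 call on Tgfbi was lost without CSA day 6 replicate 2 (-0.70, adjusted p = 0.160), without DMSO day 6 replicate 1 (-1.05, adjusted p = 0.167) and without DMSO day 6 replicate 2 (-1.35, adjusted p = 0.0817). Without CSA day 6 replicate 2 the rise of Tgfbi in CSA cells passed, at 1.02 (adjusted p = 0.0182). The difference between the CSA effects was lost in 6 of 8 such fits, those without either CSA day 3 array, CSA day 6 replicate 2, DMSO day 3 replicate 1 or either DMSO day 6 array (adjusted p = 0.0684 to 0.121), with values of -1.98 to -1.34. The rise in DMSO cells held in all 8, at 2.19 to 2.52. The part of the fibroblast and epithelial markers, whose counts and sums at day 6 are given with Tgfb3, in the lower Tgfbi was not tested. At day 3 the fibroblast sums were 24510 to 25120 in CSA cells, against 25580 to 26840 in DMSO cells, and the epithelial sums 27510 to 27530 in CSA cells, against 21190 to 22340 in DMSO cells. Of the 10 epithelial markers 6 were called at day 3, all 6 higher with CSA (60%, beside 12.7% of all genes called). For the CSA effect at day 6 minus that at day 3, 4 of 10 epithelial markers were called, all 4 below 0 (40%). Of the fibroblast markers 2 of 10 were called, both below 0 (20%), beside 5.79% of all genes.

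Tgfbi had 4 probe sets, and 1 of the others repeated the pattern with a smaller spread. Probe set 1448123_s_at had 8.05 and 8.22 in CSA cells, against 8.80 and 9.03 in DMSO cells at day 6. At day 3 that probe set had 7.38 and 7.43 in CSA cells, against 6.66 and 6.45 in DMSO cells. It was lower with CSA at day 6 (-0.78 ± 0.20, adjusted p = 0.0332), higher with CSA at day 3 (0.85 ± 0.20, adjusted p = 0.0217) and passed for the difference between these effects (-1.63 ± 0.29, adjusted p = 0.0108). It was also higher at day 6 than at day 3 in CSA cells, by 0.73 (adjusted p = 0.0173). Probe set 1437463_x_at differed by -0.35 with CSA at day 6 (adjusted p = 0.362), and 1415871_at by -0.59 (adjusted p = 0.514). All 4 probe sets were higher at day 6 than at day 3 in DMSO cells, with adjusted p of 0.00576 or less. The mean of the 4 was at -0.73 for CSA at day 6 (adjusted p = 0.0713). A suffix of x or s marks probe sets that may read more than 1 transcript, and 3 of the 4 carry one.

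**Figure D4:**
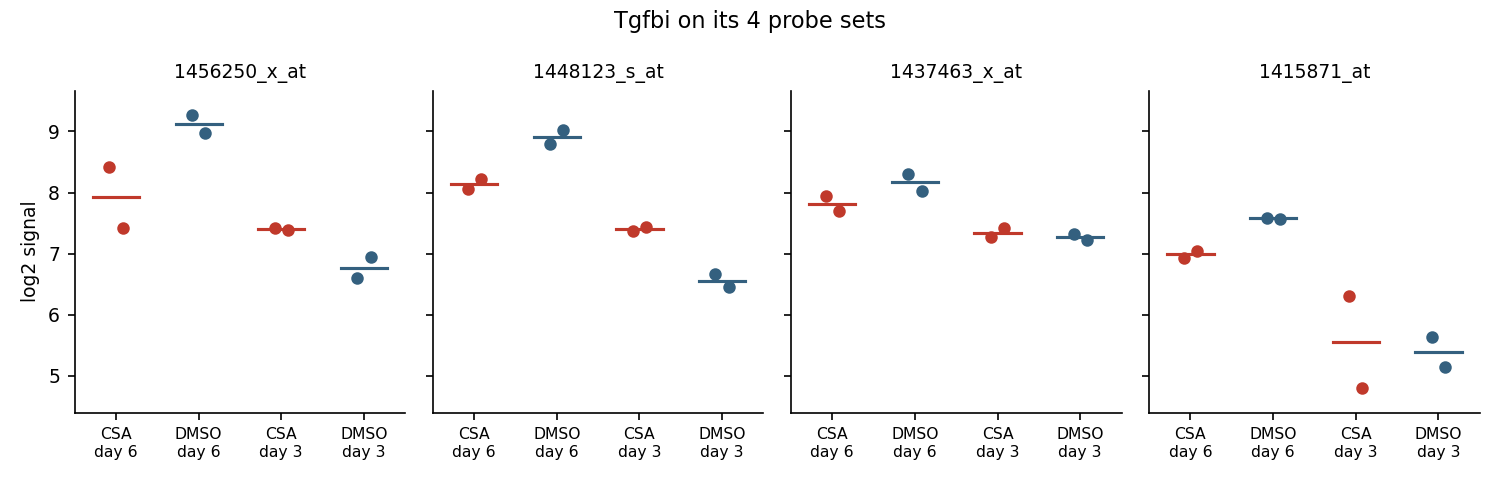
Log2 signals of Tgfbi on its 4 probe sets with a shared axis, points for arrays and lines for group means. On each probe set both CSA arrays at day 6 lie below both DMSO arrays at day 6, and the 2 probe sets on the left also have both CSA arrays at day 3 above both DMSO arrays at day 3.

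Beyond the 9 genes, 90 gene symbols of the pathway in 6 lists were counted, of which 82 had a probe set with 1 symbol and 76 were tested. With CSA 11 of the 76 were higher and 8 lower at day 6, and 10 were higher and 4 lower at day 3. As shares these were 25% and 18.4%, beside 12.5% and 12.7% of all genes. The median difference was 0.00 at day 6 and 0.09 at day 3, beside -0.01 and -0.00 over all genes. The lists were made with earlier results of these data known. The 19 calls at day 6 were 8 without CSA day 6 replicate 2, 8 without DMSO day 6 replicate 2 and 11 without DMSO day 6 replicate 1. The 14 calls at day 3 were 6 without CSA day 3 replicate 1, 8 without CSA day 3 replicate 2 and 9 without DMSO day 3 replicate 2. Without the intensity trend they were 7 and 3.

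The list of induced targets held the most calls. With CSA at day 6, 10 of its 27 tested genes were higher and 3 lower, 48.1% (7 calls in all without CSA day 6 replicate 2 and 7 without DMSO day 6 replicate 2), and at day 3 5 were higher and 1 lower, 22.2%. Tagln, an actin-binding protein of smooth muscle and myofibroblasts, had log2 signals at day 6 of 11.55 and 11.65 in CSA cells, against 10.67 and 10.50 in DMSO cells, and was higher by 1.02 ± 0.10 (adjusted p = 0.0001). Lox, which cross-links collagen, had 12.81 and 12.92 in CSA cells at day 6, against 11.87 and 11.95 in DMSO cells, and was higher by 0.96 ± 0.09 (adjusted p = 0.000114). Postn, a matrix protein related to Tgfbi, went the other way, with 7.08 and 7.21 in CSA cells at day 6, against 9.68 and 9.76 in DMSO cells (-2.57 ± 0.28, adjusted p = 0.000298). The collagen Col3a1 was also lower at day 6, by -0.85 ± 0.08 (adjusted p = 0.00015). Ccn2, a matricellular growth factor often used to read TGF-beta activity, was 13.08 and 13.04 in CSA cells, against 12.81 and 12.80 in DMSO cells at day 6, higher by 0.25 ± 0.06 (adjusted p = 0.0198), a call lost without any 1 of the 4 arrays of day 6 (adjusted p = 0.0590 to 0.112). At day 3 Ccn2 differed by 0.08 (adjusted p = 0.444). The induced targets thus did not move one way: Tagln, Lox and Ccn2 were higher with CSA at day 6, while Tgfbi, Postn and Col3a1 were lower.

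Of the targets called at day 3, Col1a2, a chain of type I collagen, was higher with CSA by 0.70 ± 0.06 (adjusted p = 8.79e-05), Fn1, fibronectin, by 0.71 ± 0.07 (adjusted p = 0.000206), the transcription factor Bhlhe40 by 0.80 ± 0.10 (adjusted p = 0.000655) and the cell cycle inhibitor Cdkn2b by 0.57 ± 0.09 (adjusted p = 0.0037). For 10 of the 27 (37%) the effect of CSA differed between the days, beside 5.79% of all genes. Its value was higher at day 6 for 4 of them and lower for 6. Fewer were called without either CSA day 3 array, CSA day 6 replicate 2, DMSO day 3 replicate 2 or either DMSO day 6 array. With probe sets averaged 6 were called, and without the intensity trend 0. Postn had the largest such difference among the genes named here, -3.33 ± 0.40 (adjusted p = 0.00182), with 6.22 and 6.90 in CSA cells at day 3, against 6.04 and 5.58 in DMSO cells. Col1a2 had -0.88 ± 0.09 (adjusted p = 0.000784), while Acta2, smooth muscle actin, had 0.81 ± 0.12 (adjusted p = 0.00448) and Lox 0.75 ± 0.13 (adjusted p = 0.0101, or 0.0509 without CSA day 3 replicate 2). Col1a1, Col1a2 and Col3a1 of this list are also among the 10 fibroblast markers. Of these markers 1 was lower with CSA at day 6 (10%, beside 12.5% of all genes called). At day 3, 1 was higher and 2 lower (30%, beside 12.7%).

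**Figure D5:**
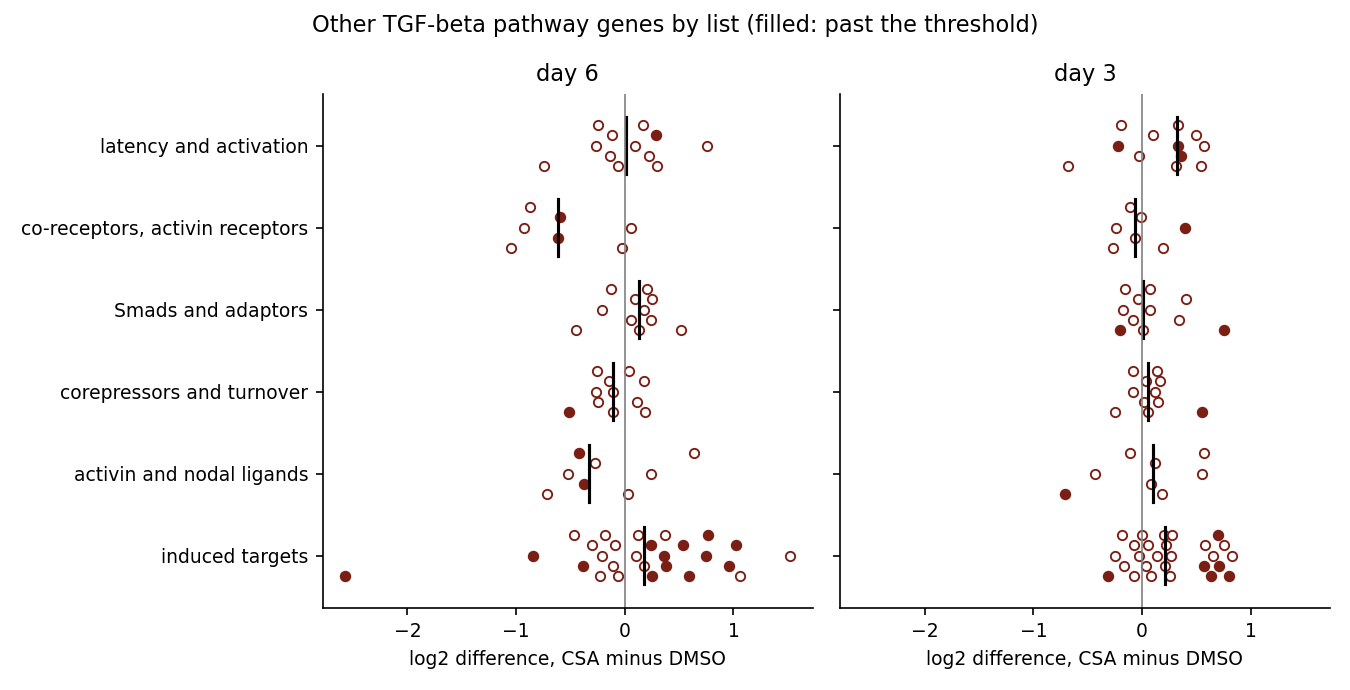
Differences between CSA and DMSO (log2) of the other tested pathway genes, 1 row per list, at day 6 on the left and day 3 on the right, with filled points for calls and a bar at each list's median. The induced targets have 13 filled points at day 6, on both sides of 0, and Postn is the point at -2.57.

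Among the genes that hold or release latent TGF-beta, 1 of 12 tested genes was called with CSA at day 6 (8.33%) and 3 at day 3 (25%), beside 12.5% and 12.7% of all genes. Thbs1, thrombospondin 1, which can activate the latent ligand, was higher with CSA at day 6 by 0.28 ± 0.07 (adjusted p = 0.0336) and at day 3 by 0.33 ± 0.07 (adjusted p = 0.0158). The day 6 call was lost without any 1 of the 4 arrays of day 6 (adjusted p = 0.0972 to 0.149), and the day 3 call without CSA day 3 replicate 1 (adjusted p = 0.141) or DMSO day 3 replicate 2 (adjusted p = 0.0845). The proteoglycan Bgn was higher at day 3 by 0.36 ± 0.09 (adjusted p = 0.0294) and Dcn, decorin, which binds TGF-beta, lower by -0.22 ± 0.06 (adjusted p = 0.0411). Both calls were lost without CSA day 3 replicate 1, CSA day 3 replicate 2 or either DMSO day 6 array, that of Bgn also without DMSO day 3 replicate 2 and that of Dcn without DMSO day 3 replicate 1 (adjusted p = 0.0501 to 0.218 in these fits). Ltbp1, a protein that tethers the latent complex to matrix, was the 1 gene of the list whose CSA effect differed between the days, by -0.56 ± 0.13 (adjusted p = 0.0420). That call was kept in the fit without CSA day 3 replicate 1 and lost in the other 7 (adjusted p = 0.0741 to 0.159). In this list 7 genes were higher and 2 lower at day 6 than at day 3 in CSA cells. In DMSO cells 8 were higher and 1 lower. These are 75% in each treatment, beside 36.1% and 45.7% of all genes. How day calls split under another scaling is given below for all called genes and for the tested members, not for this list.

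In the list of co-receptors and activin receptors 2 of 7 tested genes were lower with CSA at day 6 (28.6%, beside 12.5% of all genes), where the list's median was -0.61. At day 3, 1 was higher (14.3%, near the 12.7% of all genes), with a median of -0.07. Acvr1b, the type I receptor of activin and nodal, resembled Tgfbi in its signs. At day 6 it had 10.79 and 10.73 in CSA cells, against 11.33 and 11.41 in DMSO cells, and at day 3 10.54 and 10.60 in CSA cells, against 10.10 and 10.25 in DMSO cells. It was lower with CSA at day 6, by -0.61 ± 0.09 (adjusted p = 0.00129), and higher at day 3, by 0.40 ± 0.09 (adjusted p = 0.0153). The effects differed by -1.01 ± 0.12 (adjusted p = 0.00193). The day 3 call was lost without CSA day 3 replicate 1 (adjusted p = 0.0691), CSA day 3 replicate 2 (adjusted p = 0.113) or DMSO day 3 replicate 1 (adjusted p = 0.0795), and the mean of its probe sets was at -0.06 at day 6 (adjusted p = 0.913). Eng, endoglin, a co-receptor, was lower with CSA at day 6 by -0.59 ± 0.13 (adjusted p = 0.0160), a call lost without CSA day 6 replicate 2 (adjusted p = 0.115), DMSO day 6 replicate 1 (adjusted p = 0.122) or DMSO day 6 replicate 2 (adjusted p = 0.0538).

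Of the Smads and adaptors, limma called 0 of 11 tested genes with CSA at day 6 (1 at an unadjusted p under 0.05) and 2 at day 3 (18.2%, beside 12.7% of all genes). Smad6, an inhibitory Smad known mainly for BMP signalling, was higher with CSA at day 3, with 10.20 and 10.27 in CSA cells, against 9.46 and 9.50 in DMSO cells (0.75 ± 0.12, adjusted p = 0.00309). Fkbp1a, which binds the type I receptor, was lower by -0.20 ± 0.06 (adjusted p = 0.0491), a call lost in each of the 8 fits without 1 array (adjusted p = 0.0532 to 0.225). The signal transducers Smad2 and Smad3 differed by 0.20 and 0.13 with CSA at day 6 and by 0.01 and -0.04 at day 3, none past the threshold (adjusted p = 0.229 to 0.965). These Smads were singled out after their values were seen.

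Among corepressors and turnover genes 1 of 11 was called with CSA at each day, 9.09%, which is under the 12.5% and 12.7% of all genes. Tgif2, a corepressor of Smads, was lower at day 6 by -0.52 ± 0.12 (adjusted p = 0.0222), a call lost without CSA day 6 replicate 1 (adjusted p = 0.104), CSA day 6 replicate 2 (adjusted p = 0.0620) or DMSO day 6 replicate 2 (-0.33, adjusted p = 0.190). Smurf1, a ubiquitin ligase that acts with Smad7 on the receptor, was higher at day 3 by 0.55 ± 0.11 (adjusted p = 0.00971), a call lost without CSA day 3 replicate 1 (adjusted p = 0.0701) or replicate 2 (adjusted p = 0.0677). Of the activin and nodal ligands and their antagonists 2 of 8 were lower with CSA at day 6 (25%) and 1 at day 3 (12.5%, near the share of all genes). Fst, follistatin, which binds activin, had 9.70 and 9.81 in CSA cells at day 6, against 10.09 and 10.18 in DMSO cells (-0.38 ± 0.10, adjusted p = 0.0318). At day 3 Fst had 9.85 and 9.94 in CSA cells, against 10.65 and 10.56 in DMSO cells (-0.71 ± 0.10, adjusted p = 0.00111). Inhbb, an activin subunit, was lower at day 6 by -0.43 ± 0.12 (adjusted p = 0.0452), a call that the replicate block (adjusted p = 0.0555), median centring (0.0593) and no filter (0.0584) each ended. The day 6 calls of Fst and Inhbb were lost without either CSA day 3 array or any array of day 6 (adjusted p = 0.0506 to 0.200). For the difference between the CSA effects limma called 0 genes in the lists of Smads, corepressors and activin ligands, with 3 in each at an unadjusted p under 0.05.

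Over the days, 32 of the 76 pathway genes were higher and 9 lower at day 6 than at day 3 in CSA cells, and 38 were higher and 9 lower in DMSO cells. These are 53.9% and 61.8% of the 76, beside 36.1% and 45.7% of all genes. Among the induced targets 18 of 27 were higher and 1 lower in CSA cells, and 17 higher and 2 lower in DMSO cells. Fn1 was 4.31-fold higher at day 6 than at day 3 in CSA cells and 6.25-fold higher in DMSO cells, with adjusted p of 3.98e-08 and 3.18e-09. Postn differed by 0.58 (log2) in CSA cells (adjusted p = 0.150) and was 15.0-fold higher at day 6 in DMSO cells (adjusted p = 1.86e-06). Among fibroblast markers 7 of 10 were higher at day 6 in each treatment, with 1 lower in CSA cells and 2 lower in DMSO cells. Col1a1, Col1a2, Col3a1 and Dcn count both as pathway genes and as fibroblast markers. Of the epithelial markers 8 of 10 were higher at day 6 in CSA cells and 10 of 10 in DMSO cells. The part of these markers in the day course of the TGF-beta genes was not tested. Scaling weighed on the day counts: of all called genes 56.1% were higher at day 6 in CSA cells and 57.1% in DMSO cells, against 28.9% and 33% with arrays centred on their medians. With that centring 3 of the 8 tested TGF-beta genes were higher and 1 lower at day 6 in CSA cells, and 6 higher and 2 lower in DMSO cells. The split of the 76 pathway genes under that centring is not given here.

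The other cell types were checked beside these results. With CSA 4 of 8 tested keratinocyte markers were higher at day 6 (50%) and 3 at day 3 (37.5%). Of all genes 6.41% and 7.14% were higher. Their summed signals at day 6 were 12050 to 12410 in CSA cells, against 9234 to 9985 in DMSO cells, and at day 3 11920 to 12280 in CSA cells, against 7967 to 8043 in DMSO cells. Pluripotency markers summed to 1821 to 1822 in CSA cells at day 6, against 2662 to 3132 in DMSO cells, and to 1253 to 1570 in CSA cells at day 3, against 1333 to 1463 in DMSO cells. Of 5 tested pluripotency markers 2 were lower with CSA at day 6 (40%) and 1 at day 3 (20%), beside 6.11% and 5.52% of all genes. Macrophage sums were 829.4 to 889.4 in CSA cells at day 6, against 715.4 to 762.3 in DMSO cells, and 589.5 to 596.1 at day 3, against 611 to 678.1. Endothelial sums were 2621 to 2830 in CSA cells at day 6, against 2100 to 2258 in DMSO cells, and 1897 to 2056 at day 3, against 1996 to 2122. Of the tested endothelial markers 1 of 5 was called, higher with CSA at day 6 (20%, beside 12.5% of all genes called). For the macrophage markers limma called 0 of 6 at either day (0 at an unadjusted p under 0.05).

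For each tested gene the 3 genes with the most similar profile were found by Pearson's correlation over the 8 arrays. The arrays fall into 4 groups and the genes were the highest of all tested, so the values describe the profiles and were not tested. For Tgfb2 they were Igfbp4 (r = 0.999), which binds insulin-like growth factors, Tnfaip8 and Plcd1 (0.997 each). For Tgfb3 they were Hs3st3a1 (0.998), which modifies heparan sulfate, Ctnnal1 (0.991) and Fgd5 (0.985), and for Tgfbi they were Map7 (0.991), which binds microtubules, Fnbp1l (0.984) and Upf2 (0.977). For Tgfbr2 they were Cog4 (0.996), Trim56 and Ccni (0.989 each), for Tgfbr3 Flii (0.991), Dab2 (0.989) and Sulf1 (0.988), and for Tgfbr1 Vgll3 (0.960), Flnc (0.953) and Sema3e (0.941). For Smad7 they were Arfgef2 (0.974), Naa25 (0.973) and Mlx (0.971), and for Skil Usp32 (0.978), Entpd1 (0.977) and Alox12b (0.975). None of them is a member of the 9.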

How the data were processed

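The values used are log2 signals that the authors deposited for 45037 probe sets on 8 Affymetrix 3' arrays. The submitters' processing notes name MAS5 without a version, and its scaling target is not stated in them. The trimmed mean of the deposited signals was 496.8 to 497.5 on every array, which points to scaling by a constant, and 110 to 259 values per array were exactly 0. Low signals are noisy on the log2 scale. The labels and design text call the 2 arrays of a group biological repeats. The p-values weigh a difference against a spread that limma pools within all groups. Limma also draws that spread toward the spread of probe sets of similar intensity.

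Probe sets with a mean log2 signal at or above the 40th percentile (5.38, which left 27022) were tested with limma 3.58.1 in R 4.3.3, with 1 mean per group over all 8 arrays (4 residual degrees of freedom), an intensity trend, two-sided tests and Benjamini-Hochberg adjustment over all of them. The threshold was 0.05. Counts over genes take the probe set with the highest mean of each gene. The platform annotation gave 1 symbol for 34945 probe sets, several for 932 (not used) and did not list 9160; all 9 members matched RefSeq by Entrez ID. The pipeline was tested on simulated data.

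Named were all members, up to 4 genes of each list with the smallest p in each CSA comparison and in the interaction, Ccn2, and the 3 genes most like each tested member. Members, lists and settings were chosen with earlier results of these data known. Replicate numbers were not shown to pair the arrays, with correlations of same-numbered deviations between groups of -0.0034 to 0.0343. Promoter sequences are RefSeq's (GRCm38.p6), taken for 5 of the members. Detection calls, scan dates and probe sequences were not used here.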

Additional observations from a re-analysis of the deposited data

Results flagged for a closer look

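Tgfbi was singled out because its CSA effects at the 2 days differed by a test of the difference itself. CSA minus DMSO was -1.20 at day 6 and 0.63 at day 3 (log2), a difference of -1.83 ± 0.42 (limma adjusted p = 0.0335, n = 2 arrays per group). Both CSA arrays lay below both DMSO arrays at day 6 and above both at day 3. Probe set 1448123_s_at gave -1.63 ± 0.29 (adjusted p = 0.0108), 1437463_x_at gave -0.42 (adjusted p = 0.503) and 1415871_at gave -0.75 (adjusted p = 0.613). The call on 1456250_x_at was lost in 6 of 8 fits without 1 array (adjusted p = 0.0684 to 0.121), without the intensity trend (adjusted p = 0.183), with the 4 probe sets averaged (-1.16, adjusted p = 0.0767) and without probe sets marked x or s (-0.75, adjusted p = 0.610).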

How the results depend on the processing

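No called difference of the 8 tested genes changed sign in any setting. Of 164 called values under the other settings 147 kept their call, and of 120 in fits without 1 array 101 did. The number of the 8 genes past the threshold depended on the setting as follows. Without the intensity trend it was 0 for CSA at day 6, 0 for CSA at day 3 and 0 for the interaction. Without probe sets marked x or s it was 1 for CSA at day 6. With each gene's probe sets averaged it was 3 for the days in DMSO cells and 0 for the interaction. The interaction count was 2 with the filter at the 60th percentile, a floor at 5, a pseudocount of 32 or quantile normalization, and 2 with a replicate block, where Skil joined (adjusted p = 0.0239); the replicate numbers were not shown to pair the arrays, and the block changed no other call of the 8 but ended that of Inhbb for CSA at day 6 (adjusted p = 0.0555). Leaving out 1 array gave 0 to 3 calls for CSA at day 6, 0 to 1 at day 3, 0 to 1 for the interaction, 3 to 6 for the days in CSA cells and 6 in each fit for DMSO cells. Over all probe sets the calls were 2612 for CSA at day 6 (694 without the trend, or 1125 genes with probe sets averaged, which tests fewer features), 2588 at day 3 (442, or 1105 genes), 1144 for the interaction (0, or 515 genes), 8358 for the days in CSA cells (3214 genes averaged) and 10970 in DMSO cells (4309 genes); without 1 array they were 1112 to 2848, 1076 to 2641, 390 to 994, 5417 to 8822 and 8106 to 11012.

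Signs turned only for differences that were not called. With probe sets averaged these were CSA at day 6 for Skil (0.025), Smad7 (-0.0015) and Tgfbr1 (-0.17), CSA at day 3 for Tgfbr2 (-0.14) and Tgfbr3 (0.40), the interaction for Tgfbr2 (0.17) and Tgfbr3 (-0.20), and the days in CSA cells for Tgfbr1 (-0.27). The days in CSA cells turned for Tgfbr1 with median centring (-0.11) and for Skil with quantile normalization (0.073). Without 1 array Skil ranged from -0.071 to 0.018 for the days in CSA cells, Smad7 from -0.092 to 0.20 for CSA at day 6, Tgfb2 from -0.15 to 0.042 for the interaction and Tgfbr3 from -0.16 to 0.11 for CSA at day 3. Of the named pathway genes, the calls kept without the trend were Acvr1b, Tagln, Lox, Col3a1 and Postn for CSA at day 6 and Fst, Col1a2 and Fn1 at day 3. Averaging probe sets ended the calls of Acvr1b and Inhbb at day 6, of Acvr1b, Dcn, Fkbp1a, Fn1, Smurf1 and Col1a2 at day 3, and of Acta2, Acvr1b, Col1a2, Lox and Ltbp1 for the interaction. Other settings also ended calls near the threshold: the fit on only the arrays compared those of Bgn, Dcn and Fkbp1a at day 3 and Fst at day 6; no filter those of Dcn, Fkbp1a, Inhbb and Ltbp1; quantile normalization those of Dcn, Fkbp1a and Ltbp1; median centring those of Inhbb and Ltbp1; and a floor at 5 or a pseudocount of 32 that of Fkbp1a. Dim probe sets take part in the means, and why any setting ended a call was not tested. Signal over background limits Tgfb1 most, since neither of its probe sets passed the filter.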
